A study of Homo sapiens with 24 samples.

Results

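The m6A writers are the proteins that place methyl groups on adenosines of RNA, and 10 genes for them were followed here out of 60675 genes counted in each library. METTL3 is the catalytic subunit and METTL14 the partner that holds the RNA substrate. WTAP, VIRMA, ZC3H13, CBLL1 (also called HAKAI), RBM15 and RBM15B form the accessory part of the complex, which brings the catalytic pair to mRNA. METTL16 and METTL5 are separate methyltransferases. METTL16 acts on the U6 small nuclear RNA and on the mRNA of the SAM synthetase MAT2A, and METTL5 acts on the 18S ribosomal RNA. The genes were chosen by name, each was matched to a single Ensembl gene identifier, and all 10 passed the filter on low counts in both cell lines. Each group was a bulk culture, so fewer cells with the mRNA and less mRNA per cell cannot be told apart.

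The writers were measured in 24 RNA-seq libraries, 3 for each of 8 conditions. LNCaP:C4-2 (LNCaP:C42 in the labels), a castrate-resistant line, and 22Rv1, a line that also expresses variants of the androgen receptor, are both established prostate cancer lines. Cells in medium with charcoal-stripped serum received either siMETTL3, a mixture of siRNAs that target METTL3, or siSCR, a non-targeting mixture, were transfected again after 48 h, and given 1 nM of the synthetic androgen R1881 or ethanol vehicle for 72 h. Every condition therefore includes siRNA transfection, and the siRNA effect rests on a single pool for METTL3. Nothing says that the libraries of a group came from separate cultures, so p-values measure the spread between these libraries, which may be technical.

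Library totals ran from 15716224 to 21306019 counted fragments, and the writers together took 0.0591% to 0.0638% of a library. Counts per writer and library ran from 235 (METTL5) to 3636 (RBM15B), so a count of 3, equal to 0.191 CPM by the unadjusted total of the smallest library, was far below every value. The CPM given for genes divide a count by the TMM-adjusted size of its library, with TMM run over all 24 libraries. The luminal markers were present in both lines, with FOXA1 at 604.5 ± 14.4 CPM in LNCaP:C4-2 and 438.8 ± 19.2 CPM in 22Rv1 (SD, n = 3, siSCR with vehicle). The basal marker KRT5 was at 0 in both of these groups. Of 12 markers of other lineages 6 passed the filter in LNCaP:C4-2 and 3 in 22Rv1, and 4 and 1 of them were called with R1881 and siSCR. In LNCaP:C4-2 KRT14 went from 0.0179 to 0.607 CPM, VWF from 3.24 to 6.26 CPM and PTPRC from 1.39 CPM to 0, and PTPRC was also lower with siMETTL3 and vehicle (0.210 CPM). COL1A1 was 53.6 CPM in LNCaP:C4-2 and went from 26.2 to 15.8 CPM with R1881 in 22Rv1. Their part in the results was not tested. In siSCR with vehicle the neuroendocrine marker SYP was 88.2 ± 8.38 CPM in 22Rv1 and 1.98 ± 0.398 CPM in LNCaP:C4-2. R1881 raised the androgen-responsive gene FKBP5 by 3.49 on the log2 scale in LNCaP:C4-2 and by 3.33 in 22Rv1 with siSCR (adjusted p = 1.34e-12 and 2.26e-19). The share of mitochondrial counts differed within groups and ran from 3.93% to 9.73%. In LNCaP:C4-2 it was 7.08%, 9.73% and 9.69% in siSCR with R1881, and 9.60%, 6.89% and 7.03% in siMETTL3 with vehicle.

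In GRCh38 METTL3 (ENSG00000165819) lies at chr14:21498133-21511375 on the minus strand, CBLL1 (ENSG00000105879) at chr7:107743697-107761667 on the plus strand, METTL5 (ENSG00000138382) at chr2:169810081-169824931 and METTL16 (ENSG00000127804) at chr17:2405562-2511891, both on the minus strand. The promoter sequences of the genes that carry the results are shown for the targeted gene METTL3, for CBLL1, the writer with the largest R1881 response under siSCR, and for METTL5, the writer that differed most between the lines. Each is the 250 bases before the RefSeq start in GRCh38.p14, written 5′ to 3′ on the strand of the gene, with CG dinucleotides in capitals. METTL3 lies on the minus strand (chr14:21511341-21511590), CBLL1 on the plus strand (chr7:107743892-107744141) and METTL5 on the minus strand (chr2:169824906-169825155).
METTL3: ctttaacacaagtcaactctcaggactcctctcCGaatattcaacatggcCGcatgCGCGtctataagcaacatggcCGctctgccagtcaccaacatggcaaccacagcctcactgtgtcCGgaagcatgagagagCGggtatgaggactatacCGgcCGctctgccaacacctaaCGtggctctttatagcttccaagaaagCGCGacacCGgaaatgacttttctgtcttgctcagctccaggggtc
CBLL1: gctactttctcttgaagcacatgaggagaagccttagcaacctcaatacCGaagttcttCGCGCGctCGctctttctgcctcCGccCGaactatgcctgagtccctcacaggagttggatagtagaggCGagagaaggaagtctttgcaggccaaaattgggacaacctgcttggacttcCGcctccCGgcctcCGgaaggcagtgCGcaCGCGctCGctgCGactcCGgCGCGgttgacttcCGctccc
METTL5: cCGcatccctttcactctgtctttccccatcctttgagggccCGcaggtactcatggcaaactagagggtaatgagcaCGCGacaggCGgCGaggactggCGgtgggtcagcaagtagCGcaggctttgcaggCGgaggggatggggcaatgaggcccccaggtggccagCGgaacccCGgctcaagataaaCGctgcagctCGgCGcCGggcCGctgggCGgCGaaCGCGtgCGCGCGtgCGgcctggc
They hold 13, 20 and 24 CG dinucleotides, against a median of 11 over 35116 RefSeq promoters. The hexamer AGAACA, a core of the androgen response element, was searched on both strands. It was in none of the promoters of the 9 writers searched, and in 12.4% of all promoters of that length. The absence says only that these letters are not in these windows. The VIRMA promoter was not used here.

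RBM15B, which with RBM15 carries the complex to RNA, had the highest level per length in siSCR cells with vehicle. It was 21.3 ± 1.18 FPKM (fragments per kilobase of the merged exons, scaled like CPM) in LNCaP:C4-2 and 19.4 ± 2.17 FPKM in 22Rv1. In LNCaP:C4-2 the order of levels was then WTAP (18.1 ± 1.08 FPKM), METTL5 (15.5 ± 1.99), CBLL1 (11.6 ± 0.342), METTL16 (10.2 ± 0.679), ZC3H13 (6.21 ± 0.303), RBM15 (5.06 ± 0.216), METTL3 (4.88 ± 0.399), METTL14 (4.25 ± 0.256) and VIRMA (4.08 ± 0.192). The ranges of the 3 libraries overlapped for WTAP and METTL5, and for each pair of neighbours from RBM15 down. In 22Rv1 METTL3 stood higher in the order, at 7.85 ± 0.117 FPKM after WTAP and CBLL1, while METTL16 came last at 4.19 ± 0.166 FPKM. Over the 24 libraries METTL5 varied most, with the highest CPM 5.38 times the lowest, and ZC3H13 least, at 1.37 times. The order depends on the length used. METTL3, METTL5 and WTAP have merged exons 2.98, 2.86 and 2.77 times as long as their canonical transcript, and per length of the longest transcript METTL5 came first in LNCaP:C4-2 (32.4 ± 4.17 FPKM).

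**Figure D1:**
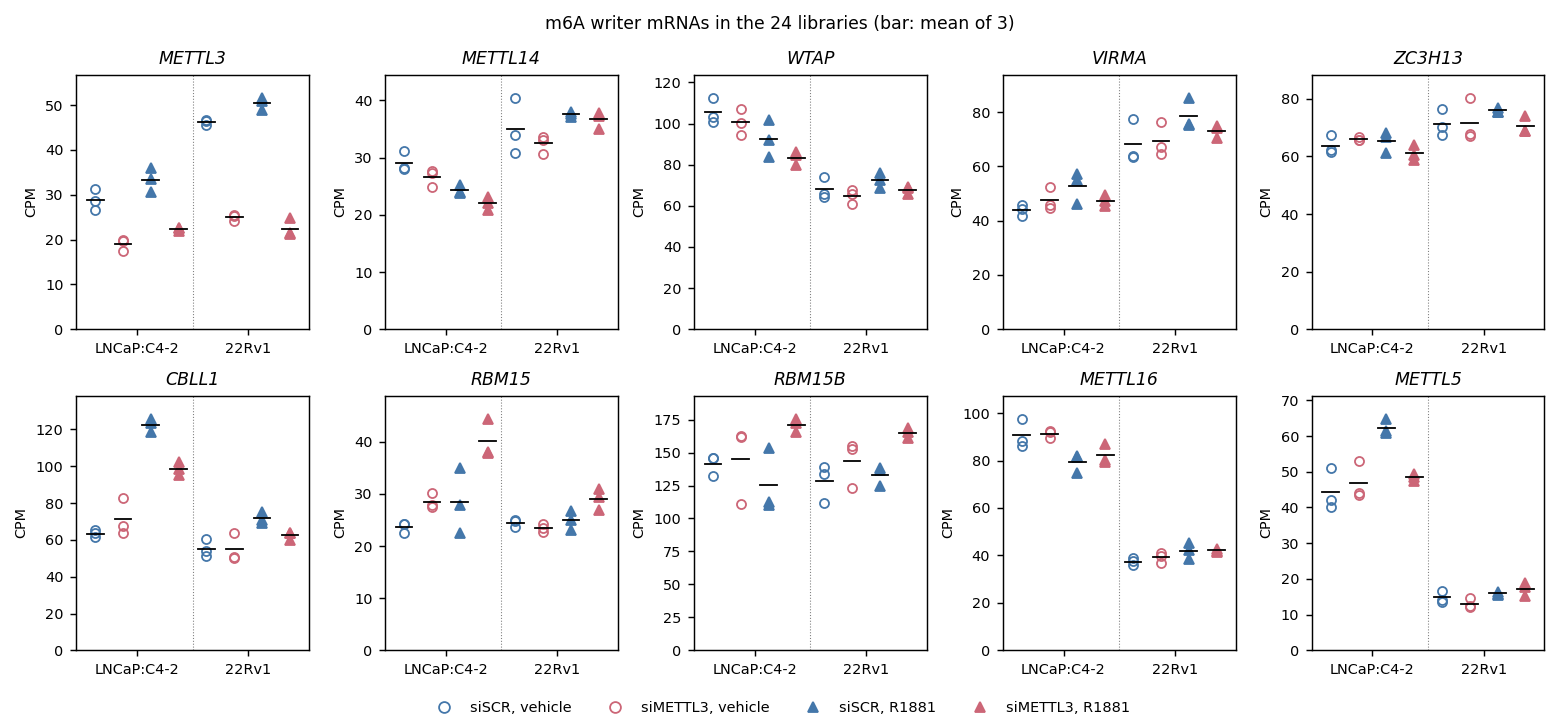
CPM of the 10 writers (y axis, from 0) in each library, by cell line (x axis). Circles are vehicle and triangles R1881, blue siSCR and red siMETTL3, and bars are means of 3 libraries. METTL3 is lower with siMETTL3 in both lines, CBLL1 in LNCaP:C4-2 is highest with R1881 and siSCR, and METTL16 and METTL5 are lower in every 22Rv1 library than in any LNCaP:C4-2 library.

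METTL3 itself was lower with siMETTL3 in every condition, which checks the labels. In LNCaP:C4-2 with vehicle its libraries held 31.2, 28.6 and 26.5 CPM with siSCR and 19.9, 19.8 and 17.5 CPM with siMETTL3. With R1881 they held 30.6, 33.6 and 35.95 CPM and then 22.7, 22.0 and 22.6 CPM. The groups did not overlap, as held for 19.9% and 29.34% of all genes in these comparisons. In 22Rv1 METTL3 was 46.6, 45.5 and 46.8 CPM with siSCR and vehicle and 25.3, 24.1 and 25.4 CPM with siMETTL3, and 51.7, 48.8 and 50.9 CPM against 21.4, 24.8 and 21.2 CPM with R1881. With either treatment the siSCR libraries of 22Rv1 were above those of LNCaP:C4-2. Of all genes 75.38% with vehicle and 77.24% with R1881 did not overlap between these siSCR groups. The siMETTL3 libraries of 22Rv1 were above those of LNCaP:C4-2 with vehicle, and the 2 lines overlapped with R1881. Averaged over treatments, METTL3 fell by 0.59 on the log2 scale in LNCaP:C4-2 (95% interval −0.75 to −0.43, adjusted p = 0.000915) and by 1.04 in 22Rv1 (−1.16 to −0.92, adjusted p = 1.54e-10). Both were called, as 2.48% and 2.08% of genes were. The fall was larger in 22Rv1 by 0.45 (−0.63 to −0.26, adjusted p = 0.0144), and METTL3 was among 0.998% of 19437 genes that passed this test. Genes were called at an adjusted p under 0.05 and at least 1.5-fold. METTL3 was just past 1.5-fold in LNCaP:C4-2 with vehicle (log2 fold change −0.61, adjusted p = 0.0127) and under it with R1881 (−0.57, adjusted p = 0.0256), and an offset for the GC content of exons gave −0.55 and −0.38. The vehicle call was lost when siSCR library 1 (−0.55, adjusted p = 0.0982), siSCR library 3 (−0.66, 0.0671), siMETTL3 library 2 (−0.64, 0.0552) or siMETTL3 library 3 (−0.55, 0.037) was left out, and METTL3 passed with R1881 when siSCR library 1 was left out (−0.65, adjusted p = 0.00791). The averaged fall in LNCaP:C4-2 was under 1.5-fold without siSCR vehicle library 1, siSCR R1881 library 3 or siMETTL3 vehicle library 3, each at −0.56. In 22Rv1 METTL3 was called in every such fit. With R1881 in LNCaP:C4-2 its adjusted p reached 0.162 with a library left out.

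The other 9 writers were not called in any knockdown comparison. In LNCaP:C4-2 1.20% of genes were called with vehicle and 0.700% with R1881, and in 22Rv1 0.202% and 3.29%. At an unadjusted p under 0.05 the number of these 9 writers was 0 and 4 in LNCaP:C4-2 and 0 and 3 in 22Rv1. DESeq2 called none of them either. The share of all genes at an unadjusted p under 0.05 is not given, here or below. Such counts of writers therefore cannot be read as an excess over genes in general. METTL14, the direct partner of METTL3, was 31.2, 27.98 and 28.3 CPM with siSCR and 27.6, 24.8 and 27.4 CPM with siMETTL3 in LNCaP:C4-2 with vehicle. The siMETTL3 libraries lay just below the siSCR libraries, where 19.9% of all genes did not overlap, and in 22Rv1 the METTL14 groups overlapped. The METTL14 log2 fold change, averaged over treatments, was −0.14 (95% interval −0.29 to 0.00) in LNCaP:C4-2 and −0.08 (−0.21 to 0.06) in 22Rv1. WTAP was −0.11 (−0.26 to 0.03) and −0.09 (−0.20 to 0.02). These intervals leave out a change of 1.5-fold in either direction, but not smaller ones.

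RBM15 and RBM15B, the RNA-binding adaptors of the complex, had positive values in LNCaP:C4-2 after METTL3 knockdown with R1881. RBM15 was 34.9, 27.9 and 22.4 CPM with siSCR and 37.8, 44.4 and 38.1 CPM with siMETTL3, and the siSCR libraries spread widely. Averaged over treatments RBM15 had a log2 fold change of 0.38 in LNCaP:C4-2 (95% interval 0.17 to 0.58, adjusted p = 0.0283), under 1.5-fold, and 0.07 in 22Rv1 (−0.06 to 0.21, adjusted p = 0.429). The difference between the lines was −0.30 (−0.54 to −0.06) and did not pass (adjusted p = 0.244). RBM15B was 153.5, 112.4 and 110.6 CPM in LNCaP:C4-2 with siSCR and R1881, and 175.6, 165.3 and 172.6 CPM with siMETTL3. In siMETTL3 with vehicle its library 1 held 111.2 CPM and libraries 2 and 3 162.6 and 162.1 CPM. The LNCaP:C4-2 libraries with a mitochondrial share above 9% were the ones with 110.6 to 112.4 CPM of RBM15B, and the part of this in the result was not tested. With R1881 RBM15 and RBM15B were called when siSCR library 1 was left out (0.66, adjusted p = 0.0111, and 0.60, adjusted p = 0.0141). In 22Rv1 RBM15B had an averaged log2 fold change of 0.23 (0.09 to 0.36, adjusted p = 0.0159), and of 0.12 with the GC offset (adjusted p = 0.035). With a library left out the adjusted p of these averaged values reached 0.0821 for RBM15 in LNCaP:C4-2 and 0.0566 for RBM15B in 22Rv1. At the adjusted p alone, 22.3% of genes passed this comparison and 9.11% the averaged one of LNCaP:C4-2. With R1881 in 22Rv1 RBM15B passed it as well (0.29, adjusted p = 0.034), as 16.2% of genes did. It did not pass in any of the 6 fits with a library left out (adjusted p 0.0628 to 0.141), nor with the GC offset (0.16, adjusted p = 0.0604). RBM15B has exons of 55.9% GC, the highest of the writers, and shares 19.95% of its exon bases with DCAF1 on the opposite strand, where fragments were left out of both genes.

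CBLL1 and METTL5 had negative values in LNCaP:C4-2 with siMETTL3 and R1881 that did not pass. CBLL1 was 118.4, 125.8 and 123.4 CPM with siSCR and 95.5, 102.3 and 98.6 CPM with siMETTL3. The groups did not overlap, as held for 29.34% of all genes in this comparison. Its log2 fold change was −0.31 (95% interval −0.52 to −0.09, adjusted p = 0.0862), and −0.01 with the GC offset. METTL5 was 61.5, 60.8 and 64.8 CPM and then 48.6, 47.3 and 49.5 CPM, also without overlap (−0.36, −0.60 to −0.12, adjusted p = 0.0798), and −0.07 with the GC offset. VIRMA, ZC3H13, a scaffold that helps keep the complex in the nucleus, and METTL16 had averaged values between −0.06 and 0.03 in the 2 lines, and none passed.

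**Figure D2:**
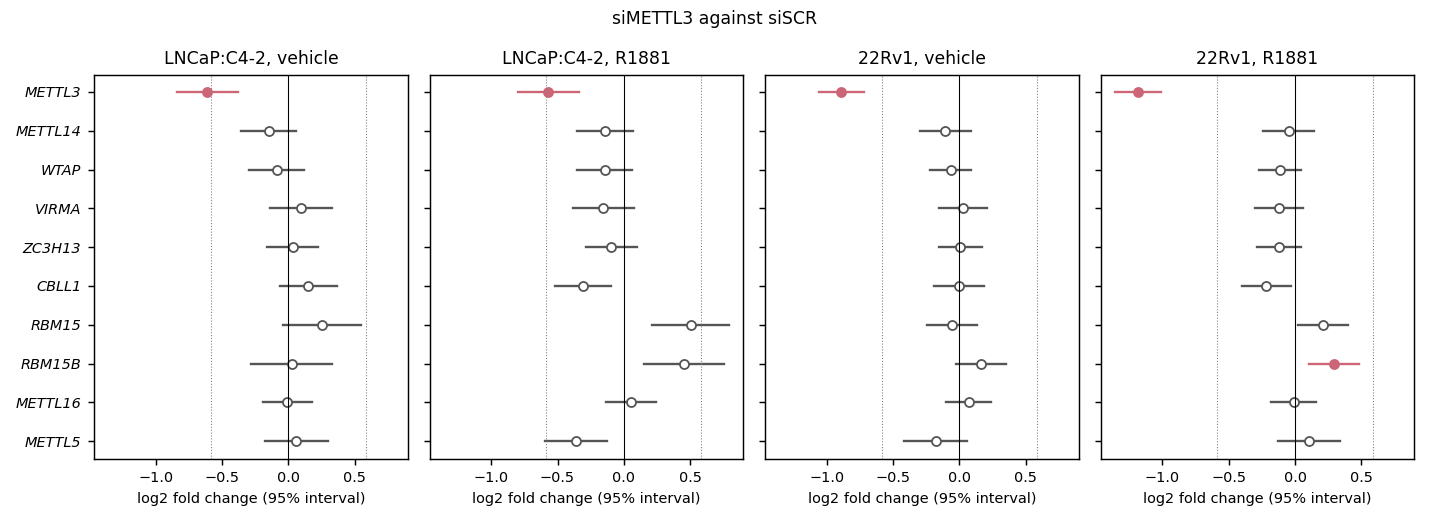
Log2 fold change of siMETTL3 against siSCR (x axis) with its 95% interval for the 10 writers (y axis) in each line and treatment. Filled red points passed an adjusted p under 0.05, and dotted lines mark 1.5-fold. METTL3 passed in all 4 panels, and among the others only RBM15B in 22Rv1 with R1881.

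METTL3 and METTL14 act as a pair, so the ratio of their counts per exon length was taken within each library, where the library scaling drops out. In LNCaP:C4-2 with vehicle the ratio was 1.17, 1.19 and 1.09 with siSCR and 0.839, 0.928 and 0.743 with siMETTL3. With R1881 it was 1.501, 1.63 and 1.66, and then 1.14, 1.23 and 1.19. In LNCaP:C4-2 the range of siMETTL3 with R1881 overlapped that of siSCR with vehicle. In 22Rv1 the ratio was 1.76, 1.56 and 1.34 with siSCR and vehicle and 0.958, 0.833 and 0.892 with siMETTL3, and with R1881 it was 1.60, 1.497 and 1.60 against 0.712, 0.772 and 0.652. The levels of the ratio depend on the exon length used, while its differences do not. In all, siMETTL3 changed the METTL3 to METTL14 ratio by −0.70 on the log2 scale (exact two-sided permutation test within the 4 line and treatment strata, p = 1.25e-05, the smallest it can give, adjusted p = 7.5e-05 over 6 ratio tests), and 12 of 12 siMETTL3 libraries lay below the siSCR libraries of their stratum. METTL3 is the siRNA target and was lower in these same libraries. This fall of the ratio therefore restates the knockdown and is not a separate result. R1881 changed it by 0.17 (exact permutation p = 0.07801, adjusted 0.0936). By line and pool the differences were 0.47 and 0.51 in LNCaP:C4-2 with siSCR and siMETTL3, 0.02 in 22Rv1 with siSCR and −0.33 in 22Rv1 with siMETTL3. The p was under 0.05 without 22Rv1 siSCR vehicle library 1 (0.192, exact permutation p = 0.04217) or 22Rv1 siMETTL3 R1881 library 3 (0.184, exact permutation p = 0.04966). Within LNCaP:C4-2 the R1881 difference was 0.49 (exact permutation p = 0.005, the smallest possible, adjusted 0.0075), and within 22Rv1 it was −0.16 (exact permutation p = 0.13). These within-line tests were added after the data were seen. The 6 ratio tests of the adjustment include those of siMETTL3, which restate the knockdown. Their presence makes the adjusted p of the R1881 difference in LNCaP:C4-2 smaller.

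**Figure D3:**
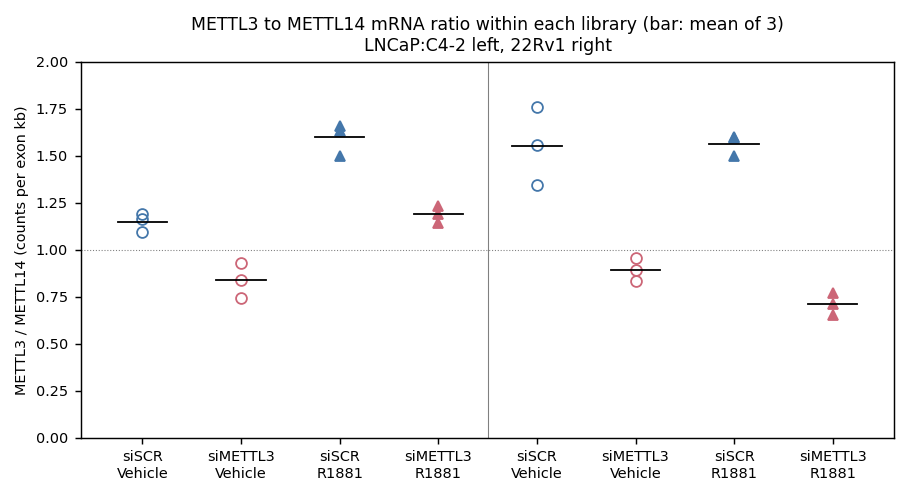
METTL3 to METTL14 ratio per exon length (y axis, from 0) in each of the 24 libraries, by condition (x axis), with LNCaP:C4-2 left of the line and 22Rv1 right of it. Circles are vehicle, triangles R1881, blue siSCR, red siMETTL3 and bars means of 3. The siMETTL3 libraries lie below the siSCR libraries of the same line and treatment, and R1881 raised the ratio in LNCaP:C4-2, from a mean of 1.15 to 1.60 with siSCR.

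CBLL1, a RING-finger E3 ligase of the accessory complex, had the largest R1881 response of the writers under siSCR in both lines, but not under siMETTL3. In LNCaP:C4-2 with siSCR it was 61.4, 65.2 and 63.6 CPM with vehicle and 118.4, 125.8 and 123.4 CPM with R1881. With siMETTL3 it was 82.7, 63.6 and 67.6 CPM and then 95.5, 102.3 and 98.6 CPM. The R1881 groups lay above the vehicle groups under both pools. Of all genes 36.86% with siSCR and 29.94% with siMETTL3 did not overlap, in either direction. The log2 fold change was 0.94 with siSCR (95% interval 0.73 to 1.16, adjusted p = 4.95e-06), and CBLL1 was the only writer called, against 15.1% of genes. With METTL5 it was 1 of 2 writers that passed the adjusted p alone, as 24.8% of genes did. With siMETTL3 it was 0.48 (0.27 to 0.70, adjusted p = 0.00311), under 1.5-fold, and none of the writers was called against 10.6% of genes (5 at an unadjusted p under 0.05, and 0 by DESeq2), while CBLL1 and RBM15 passed the adjusted p alone, as 16.6% did. Without siMETTL3 vehicle library 1 it was called (0.60, adjusted p = 9.76e-05), and with the GC offset it was 0.61. The difference between the 2 responses was −0.46 (−0.76 to −0.16) and did not pass (adjusted p = 0.314). No writer passed this interaction test in either line. No gene passed it in LNCaP:C4-2 (0%) and 0.0168% did in 22Rv1, while 3 and 2 writers were at an unadjusted p under 0.05 and DESeq2 called 0. The antisense gene CBLL1-AS1 shares 333 exon bases with CBLL1 and had a log2 fold change of 0.98 with R1881 and siSCR (adjusted p = 0.01), at 34 to 121 counts per library. Fragments within the shared bases were left out of both genes.

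RBM15 had a log2 fold change with R1881 in LNCaP:C4-2 of 0.26 under siSCR (adjusted p = 0.195) and 0.51 under siMETTL3 (adjusted p = 0.017), where an adjusted p up to 0.0893 resulted with a library left out. METTL5 was 40.2, 42.2 and 50.9 CPM with vehicle and 61.5, 60.8 and 64.8 CPM with R1881 under siSCR, a log2 fold change of 0.48 (adjusted p = 0.005), and the groups did not overlap, as held for 36.86% of all genes. Under siMETTL3 its value was 0.06 (95% interval −0.18 to 0.30), with libraries of 53.1, 44.2 and 43.4 CPM and then 48.6, 47.3 and 49.5 CPM. Without siSCR vehicle library 3 METTL5 was also called with siSCR (0.60, adjusted p = 0.00197). Averaged over both siRNA pools, 6 of the 10 writers passed the adjusted p alone, as 30.8% of genes did, and CBLL1 was the 1 writer called, against 14.2%. Of these CBLL1 (0.71), RBM15 (0.38), METTL5 (0.27) and METTL3 (0.23) were higher with R1881, and METTL14 (−0.26) and WTAP (−0.23) lower. METTL16 narrowly missed (−0.17, adjusted p = 0.0501). RBM15B (0.03, 95% interval −0.18 to 0.25) and ZC3H13 (−0.04, −0.17 to 0.10) were nearest to 0. So in this average, which includes the siMETTL3 libraries, METTL3 went up and METTL14 down, each by less than 1.5-fold. Neither passed the adjusted p under either pool alone. With siSCR the METTL3 libraries with R1881 overlapped those with vehicle. With a library left out the adjusted p reached 0.0934 for METTL3, 0.0571 for WTAP and 0.0321 for METTL14.

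In 22Rv1 no writer was called with R1881 under siSCR or siMETTL3, against 13.8% and 13.5% of genes, with 2 writers at an unadjusted p under 0.05 under each pool and 0 called by DESeq2. CBLL1 was 51.2, 53.7 and 60.5 CPM with vehicle and 69.4, 71.1 and 74.9 CPM with R1881 under siSCR, without overlap, as for 41.23% of all genes. This was a log2 fold change of 0.38 (95% interval 0.19 to 0.56, adjusted p = 0.00251). Under siMETTL3 METTL5 (0.38, adjusted p = 0.0113) and RBM15 (0.29, adjusted p = 0.0175) passed the adjusted p alone, with METTL5 at 14.7, 12.5 and 12.1 CPM and then 15.2, 17.8 and 18.96 CPM, and 33.1% of genes passed likewise. With a library left out the adjusted p reached 0.0729 for METTL5 and 0.0892 for RBM15. Averaged over the pools none of the writers was called in 22Rv1, against 15.3% of genes (4 at an unadjusted p under 0.05, and 0 by DESeq2). METTL14 and WTAP, lower with R1881 in LNCaP:C4-2, had averaged values of 0.12 (−0.01 to 0.26) and 0.06 (−0.05 to 0.17) here. The averaged R1881 responses of the lines differed for 5 of the 10 writers, against 28.1% of genes. Relative to LNCaP:C4-2 the 22Rv1 response was lower for CBLL1 (−0.43, adjusted p = 0.00138) and METTL3 (−0.24, adjusted p = 0.0479), and higher for METTL14 (0.40, adjusted p = 0.00187), WTAP (0.31, adjusted p = 0.00646) and METTL16 (0.31, adjusted p = 0.0046). With siSCR METTL3 went up in 22Rv1, from 46.6, 45.5 and 46.8 to 51.7, 48.8 and 50.9 CPM. With siMETTL3, which targets it, METTL3 went from 25.3, 24.1 and 25.4 to 21.4, 24.8 and 21.2 CPM in 22Rv1. In LNCaP:C4-2 it then went from 19.9, 19.8 and 17.5 to 22.7, 22.0 and 22.6 CPM. The part of the siMETTL3 libraries in the METTL3 difference was not tested. CBLL1 and METTL14 passed in every fit with a library left out. METTL3, WTAP and METTL16 were lost in 7, 6 and 5 of 24 such fits, at adjusted p up to 0.0707, 0.0793 and 0.0615. The comparisons with R1881 under siSCR and the knockdown with R1881 share their siSCR libraries.

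**Figure D4:**
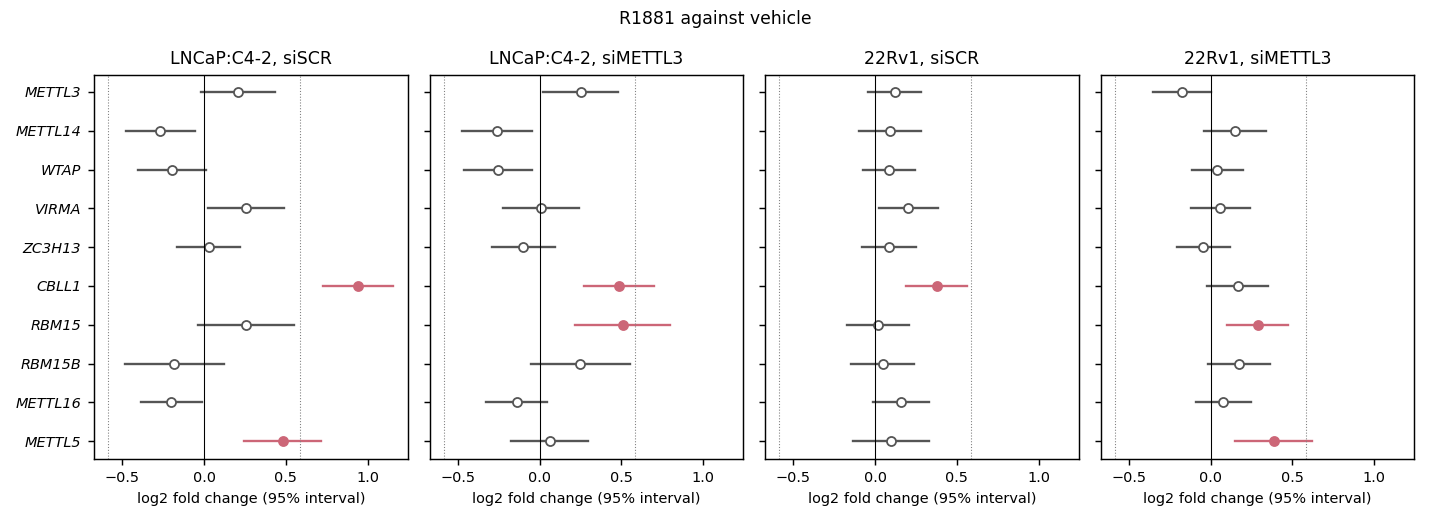
Log2 fold change of R1881 against vehicle (x axis) with its 95% interval for the 10 writers (y axis) in each line and siRNA pool. Filled red points passed an adjusted p under 0.05, and dotted lines mark 1.5-fold. CBLL1 in LNCaP:C4-2 with siSCR is the only point past both limits, at 0.94.

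The widest differences among the writers were between the lines. METTL5, the 18S rRNA methyltransferase, was 13.6, 14.1 and 16.8 CPM in 22Rv1 with siSCR and vehicle and 40.2, 42.2 and 50.9 CPM in LNCaP:C4-2, a log2 difference of −1.58 (95% interval −1.82 to −1.35, adjusted p = 1.48e-12). METTL16 was 37.5, 35.9 and 38.9 CPM against 88.2, 86.3 and 97.6 CPM, a difference of −1.28 (−1.44 to −1.11, adjusted p = 1.02e-13). The methyltransferases outside the complex were thus the lowest in 22Rv1 relative to LNCaP:C4-2, and with R1881 the values were −1.97 and −0.92. SSB, on the opposite strand to METTL5 with 572 shared exon bases, was also lower in 22Rv1 (−1.24, adjusted p = 1.27e-11), and fragments within the shared bases were left out of both genes. These are 19.97% of the METTL5 exon bases.

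Within the complex METTL3 (0.69) and VIRMA (0.64), the scaffold subunit, were higher in 22Rv1 with vehicle and WTAP (−0.63), which links the catalytic pair to the accessory proteins, was lower. WTAP was 64.3, 65.8 and 73.8 CPM in 22Rv1 and 100.7, 103.0 and 112.6 CPM in LNCaP:C4-2. VIRMA was 63.9, 63.4 and 77.4 CPM and 41.6, 44.5 and 45.7 CPM. None of these groups overlapped, as held for 75.38% of all genes. In all 5 of 10 writers were called with vehicle and 5 with R1881, against 59.2% and 60.1% of genes, so the share of writers was not above that of genes in general. With R1881 METTL14 (0.63) and METTL3 (0.59) were higher and CBLL1 (−0.77) lower in 22Rv1, while WTAP (−0.35) and VIRMA (0.57) were under 1.5-fold. RBM15 and RBM15B did not pass with either treatment, at 0.05 (95% interval −0.19 to 0.29) and −0.14 (−0.40 to 0.12) with vehicle. The size of these differences depended on the GC offset, which gave METTL3 0.43, VIRMA 0.25 and METTL14 −0.17 with vehicle, and METTL14 0.15 and METTL3 0.30 with R1881. The METTL14 direction with vehicle (0.27, adjusted p = 0.0121) thus turned. WTAP was under 1.5-fold with vehicle by RLE size factors (−0.55), by library size alone (−0.49) and by DESeq2 (−0.55), and without LNCaP:C4-2 library 3 (−0.55) or 22Rv1 library 1 (−0.57) or 2 (−0.58). With R1881 METTL3 fell under 1.5-fold without LNCaP:C4-2 library 1 (0.51) or 22Rv1 library 3 (0.57), and METTL14 without LNCaP:C4-2 library 1 (0.58). VIRMA passed 1.5-fold with R1881 without LNCaP:C4-2 library 2 (0.62) or 3 (0.59) or 22Rv1 library 1 (0.62) or 2 (0.63). With vehicle the median log2 difference of all genes was 0.03 with TMM, 0.12 with RLE and 0.18 with library size alone.

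**Figure D5:**
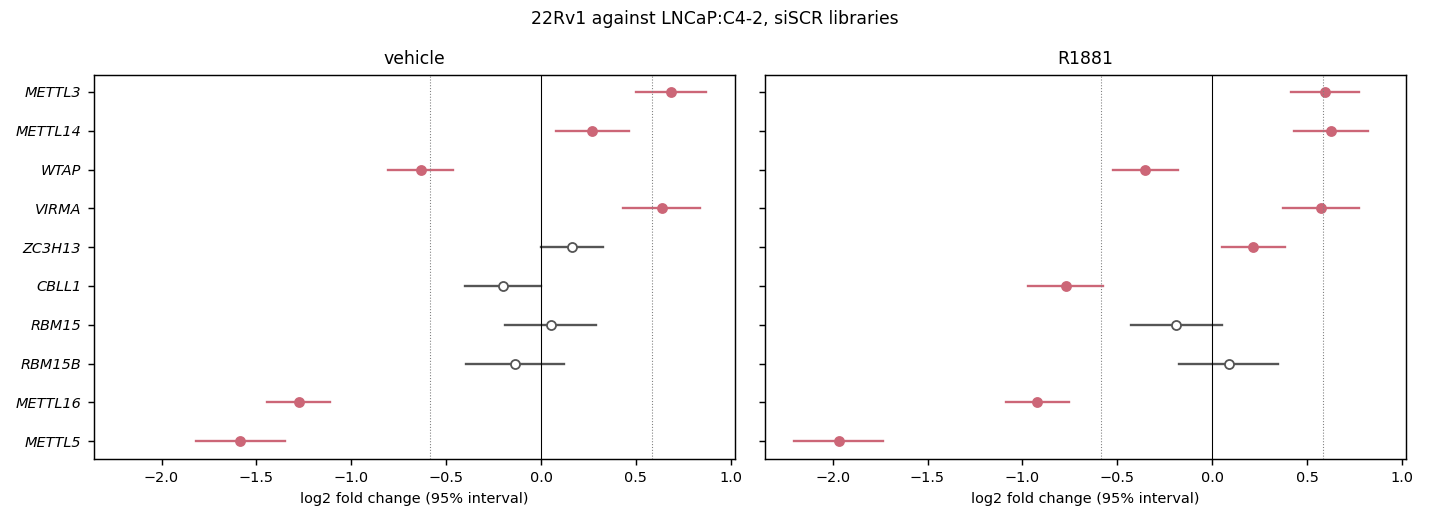
Log2 difference of 22Rv1 from LNCaP:C4-2 in siSCR libraries (x axis) with its 95% interval for the 10 writers (y axis), with vehicle and with R1881. Filled red points passed an adjusted p under 0.05, and dotted lines mark 1.5-fold. METTL5 and METTL16 are lowest in both panels, at −1.58 and −1.28 with vehicle.

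The genes whose pattern was most like METTL3 over the 24 libraries, after centring within each line, were GNB1 (Pearson r 0.951), NAPG (0.911), PHACTR2 (0.907), TMEM123 (0.906) and RRP1B (0.900), of 14021 genes. The libraries share siRNA pools, treatments and depth, and genes move together with these. The writers were far down this order, from CBLL1 (0.310) to RBM15B (−0.565).

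Other proteins of the m6A pathway were read from lists. The erasers FTO and ALKBH5, which remove the mark, were both called between the lines with vehicle, as 59.2% of genes were. ALKBH5 was −2.20 and FTO 0.95 in 22Rv1 against LNCaP:C4-2 (adjusted p = 1.77e-17 and 3.96e-10). With R1881, where 60.1% of genes were called, ALKBH5 was called at −2.59. FTO was then at −0.38, lower in 22Rv1 and under 1.5-fold. FTO was lower with R1881 in 22Rv1, at 69.3 ± 1.88 CPM against 187.5 ± 5.998 CPM with siSCR (SD, n = 3), a log2 fold change of −1.44 (edgeR, adjusted p = 1.12e-12). In LNCaP:C4-2 it was 90.1 ± 3.51 against 97.2 ± 8.12 CPM, and the averaged responses differed by −1.30 (adjusted p = 1.5e-11). No eraser was called in a knockdown comparison, although ALKBH5 passed the adjusted p alone in LNCaP:C4-2 with vehicle (0.46, adjusted p = 0.0302). None of the readers, which bind the mark (13 listed, 11 tested in LNCaP:C4-2), or of the 6 genes of the SAM cycle, which supplies the methyl group, was called there either. Of the SAM cycle AHCY, which clears the product SAH, was lower in 22Rv1 (−1.05 with vehicle, adjusted p = 3.28e-10). MAT2A, the METTL16 target, was higher in 22Rv1 with R1881 (1.16, adjusted p = 9.91e-11), but was not called between the lines with vehicle. Of 13 other RNA methyltransferases and partners, TRMT112, the cofactor of METTL5, was called with siMETTL3 in 22Rv1 with R1881 (0.69, adjusted p = 0.00243), and was under 1.5-fold with the GC offset (0.55).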

How the data were processed

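RNA-seq counts of 24 libraries were analysed, 3 for each of 8 conditions. The authors used Trim Galore for trimming, STAR for alignment (GRCh38) and, per the file headers, featureCounts 1.5.0 with the Ensembl 83 gene models. The deposited values are raw counts of fragments. No strand option was set, and fragments on several genes or places were left out by default. The members and lists were chosen with earlier results of these data known. Counts were fitted with edgeR 4.0.16 in R 4.3.3 (filterByExpr with a minimum count of 10, TMM, glmQLFit and glmQLFTest), 12 libraries per line (16435 genes in LNCaP:C4-2, 17865 in 22Rv1), and all 24 (19437 genes) between lines. Adjusted p-values are Benjamini-Hochberg over all genes tested, and tests of a difference of responses had no fold threshold. Intervals of fold changes are 95% and cover the spread between libraries. CPM used TMM over all 24 libraries, and likeness added 0.1 CPM before the log2. Named genes were the 10 writers, list genes past a call, the 5 genes most like METTL3 and genes overlapping a writer. Tests were checked on simulated data. Alternatives were DESeq2 1.42.0, RLE or library-size scaling, other filters and thresholds, a replicate block, a GC offset, only the libraries compared, and leaving out each library. Python 3.11.15 with matplotlib 3.10.9 made tables and figures. A result for 1 list gene is not reported here.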

Additional observations from a re-analysis of the deposited data

Results flagged for a closer look

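In 6 cases the response of a writer differed between the lines by a test of the difference itself (22Rv1 minus LNCaP:C4-2, edgeR). For METTL3 the averaged knockdown differed by −0.45 and the averaged R1881 response by −0.24. That R1881 average includes the siMETTL3 libraries, where METTL3 is the siRNA target. The averaged R1881 response differed by 0.40 for METTL14, 0.31 for WTAP, −0.43 for CBLL1 and 0.31 for METTL16. Of all genes 0.998% passed the knockdown test and 28.1% the R1881 test. METTL3 did not pass the knockdown test at an adjusted p under 0.01. The R1881 differences of METTL3, WTAP and METTL16 were lost in some fits with a library left out. Groups of 3 libraries were not searched for outlying samples.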

How the results depend on the processing

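Over the writers and list genes, 5213 of 5493 values under an alternative counted as unchanged, although values not called could change sign. A call was lost for 227 and gained for 37. The 16 that moved were levels per length, which have no call threshold, under the longest transcript length. METTL3 in the knockdown of each line and treatment is not among these values and is given below. Counts of writers called changed most with the threshold. At an adjusted p under 0.01 the LNCaP:C4-2 vehicle knockdown had 0 (METTL3 −0.61) and the line difference in knockdown 0. With 1.5-fold inside the test (glmTreat) the LNCaP:C4-2 vehicle knockdown (METTL3 −0.61), its averaged knockdown, its averaged R1881 response and the 22Rv1 vehicle knockdown (METTL3 −0.89) each had 0, and the lines differed for 2 writers with vehicle and 3 with R1881. With no fold threshold the counts were 1 (METTL3 −0.57) for the LNCaP:C4-2 R1881 knockdown, 2 for each averaged knockdown and for the 22Rv1 R1881 knockdown, 2, 2 and 6 for R1881 in LNCaP:C4-2 with siSCR, siMETTL3 and averaged, 1, 2 and 2 in 22Rv1, and 8 between lines with R1881. Among all genes 14573 of 19437 passed between lines with R1881, and 154 of 16435 the LNCaP:C4-2 R1881 knockdown. For R1881 in 22Rv1 it was 5903, 5917 and 8385 of 17865 genes. By glmTreat 9564 and 9777 of 19437 genes differed between lines with vehicle and R1881. With the GC offset, alone or with the replicate block, the LNCaP:C4-2 vehicle (METTL3 −0.55) and averaged knockdowns had 0, R1881 with siMETTL3 had 1 and the lines with vehicle 3. Among all genes the GC offset alone called 410 and 260 of 16424 in these knockdowns. It called 1878 of 16424 with R1881 and siMETTL3 and 11263 of 19418 between lines with vehicle. With only the 6 libraries compared the LNCaP:C4-2 vehicle knockdown had 0 (METTL3 −0.61), against 112 of 15622 genes. The R1881 change of the METTL3 to METTL14 ratio was 0.49 in LNCaP:C4-2 alone and −0.16 in 22Rv1 alone. The block with the GC offset and the ratio within each line were added after the data were seen. The causes were not tested.

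Leaving out 1 library gave counts of 0 to 1 for the LNCaP:C4-2 vehicle knockdown (METTL3 −0.66 to −0.55), 0 to 3 with R1881 (METTL3 −0.65 to −0.52), 0 to 1 averaged, 1 to 2 for R1881 with siSCR and 0 to 1 with siMETTL3, 4 to 5 between lines with vehicle, 3 to 6 with R1881 and 3 to 5 for the line difference in R1881 response. Shares of all genes called in these fits are not given, so the shifts in the counts cannot be set beside them. The ratio change with R1881 ran from 0.144 to 0.192.

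Replicate numbers did not pair the libraries. Over 18 same-numbered pairs the mean correlation of deviations was −0.02 in LNCaP:C4-2 and −0.01 in 22Rv1, and 4 and 3 of 12 libraries correlated best with their own number. With the replicate block METTL3 was −0.61 (edgeR, adjusted p = 0.0274) and −0.57 (0.0706) in LNCaP:C4-2, −0.89 and −1.18 in 22Rv1, METTL14 between lines with R1881 was 0.53, and the METTL3 line difference in R1881 response was −0.24 (0.0705). With 3 libraries a group, changes under 1.5-fold were often not detectable, and METTL5 in 22Rv1 rested on the lowest counts.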

Other observations

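These regions were chosen after their values were seen and carry no test. Within 1 Mb of METTL5, 8 of 17 genes tested were called lower and 3 higher in 22Rv1 with siSCR and vehicle, with a median log2 difference of −0.56 against 0.03 over all genes. Of all genes 59.2% were called in this comparison, in either direction. Around METTL16 it was 13 lower and 4 higher of 35 genes, with a median of −0.36. The regions of the other writers had medians up to 0.89 (METTL14, 9 higher and 2 lower of 16 genes), although METTL14 itself was at 0.27. Around CBLL1, 7 of 15 genes were called higher and 1 lower with R1881 in LNCaP:C4-2 with siSCR, with a median log2 fold change of 0.70 against −0.03 over all genes. Here 15.1% of all genes were called, in either direction.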
